A study of Mus musculus with 15 samples.

Results

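The hypoxia response outside glycolysis was followed through 33 genes of the 26263 named genes counted, chosen by symbol: the subunits of the hypoxia-inducible factor (HIF), the enzymes that sense oxygen and mark HIF for destruction, and HIF targets that do not belong to glycolysis. The cells were neural stem and progenitor cells from the dorsal telencephalon (the embryonic cortex) of mouse embryos at E12.5, expanded as floating neurospheres with EGF and FGF, and their total RNA was sequenced in 15 libraries. Kat6b encodes a histone acetyltransferase. KO_B6 (n = 4) were Kat6b–/– cells of C57BL/6 embryos, and WT_B6 (n = 3, replicates 1, 2 and 4) were wild-type cells of that strain. Tg_FvB (n = 6) carried a Kat6b transgene and came from embryos of mixed FVB × BALB/c descent, since carriers did not survive as an inbred line, and WT_FvB (n = 2) were wild-type cells of that mixed descent. Genotype was set against its own wild type within each background, and no genotype was measured on both backgrounds except the wild type. Neither the deleted part of Kat6b nor the promoter and cell types that drive the transgene are given in the sources used here. Libraries share litter numbers: KO_B6 carry 843 and 929, Tg_FvB carry 844 and 873, and both WT_FvB carry 844. The WT_B6 replicates 1, 2 and 4 carry 844, 843 and 929. Each pair of litter and embryo number is found on a single library, except that of WT_B6 replicate 1, which recurs on WT_FvB replicate 2. No oxygen measurement or hypoxic treatment is named, and all cells were grown in 5% CO2.

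HIF is a pair of proteins. Its alpha subunit is made constantly and is destroyed when oxygen is plentiful, because prolyl hydroxylases of the EGLN family mark it for the VHL ubiquitin ligase; when oxygen is scarce it survives, pairs with ARNT and switches on genes through a short core motif, RCGTG, in their control regions. The alpha protein is thus set mainly after translation, and RNA counts measure the targets rather than HIF itself. Targets outside glycolysis include vessel-directed signals, regulators of mitochondria, collagen-modifying enzymes, proton-handling enzymes, and the EGLN enzymes themselves, which feed back on HIF.

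The promoters of the genes that the results turn on most are shown here, as the 250 bases before the annotated start, read 5′ to 3′ on the gene's strand, from RefSeq's annotation of GRCm38.p6. Capitals mark the HIF core motif, searched as ACGTG and GCGTG on both strands (CACGT and CACGC on the printed strand); overlapping matches are merged. Adm and P4ha2 are shown because they rose most in KO_B6 among called genes with a match, Fam162a and Bnip3 because they hold the most matches in a single window, and Apln because it rose most in KO_B6 and holds none.
Adm (chr7:110627407-110627656, plus strand): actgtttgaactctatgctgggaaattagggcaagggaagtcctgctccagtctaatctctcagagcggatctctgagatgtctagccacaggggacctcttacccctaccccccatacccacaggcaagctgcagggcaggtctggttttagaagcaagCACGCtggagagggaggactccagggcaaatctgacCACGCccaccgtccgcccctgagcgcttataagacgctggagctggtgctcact
P4ha2 (chr11:54100674-54100923, plus strand): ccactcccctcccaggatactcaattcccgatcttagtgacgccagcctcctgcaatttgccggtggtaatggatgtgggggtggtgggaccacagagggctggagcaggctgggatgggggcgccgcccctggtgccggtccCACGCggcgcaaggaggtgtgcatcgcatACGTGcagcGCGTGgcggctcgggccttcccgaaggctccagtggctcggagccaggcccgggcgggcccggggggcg
Fam162a (chr16:36071562-36071811, minus strand): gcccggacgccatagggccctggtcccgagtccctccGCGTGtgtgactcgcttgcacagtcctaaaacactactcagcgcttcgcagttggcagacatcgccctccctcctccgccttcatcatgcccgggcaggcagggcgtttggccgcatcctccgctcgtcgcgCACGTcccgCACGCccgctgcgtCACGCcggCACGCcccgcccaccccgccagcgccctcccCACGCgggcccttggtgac
Bnip3 (chr7:138909507-138909756, minus strand): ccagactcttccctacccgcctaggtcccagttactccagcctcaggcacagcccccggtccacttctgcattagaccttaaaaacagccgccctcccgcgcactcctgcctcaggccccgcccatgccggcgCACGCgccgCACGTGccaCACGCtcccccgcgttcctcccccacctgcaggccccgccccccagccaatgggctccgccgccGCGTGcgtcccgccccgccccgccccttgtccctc
Apln (chrX:48034854-48035103, minus strand): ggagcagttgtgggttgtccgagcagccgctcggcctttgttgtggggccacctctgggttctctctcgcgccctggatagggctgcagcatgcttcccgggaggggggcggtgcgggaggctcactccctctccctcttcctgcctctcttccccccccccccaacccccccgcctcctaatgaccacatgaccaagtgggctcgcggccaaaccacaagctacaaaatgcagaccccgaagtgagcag
Adm held 2 matches, P4ha2 3, Fam162a 6, and Bnip3 5, of which a pair overlaps as CACGTG. Of the 33 genes, 24 had a promoter in the table, and 20 of these held at least 1 match in any of their listed starts, as did 41.5% of 27025 genes with promoters of the same length. Apln, Car12, Vhl and Hif1an held none. Epas1, Stc1, Bnip3l, Plod2, Lox, Loxl2, Ndrg1, Bhlhe40 and Hmox1 had no entry. The motif was in 11 of 13 listed genes called higher in KO_B6, in 4 of 4 called lower and in 5 of 7 not called, so genes called in either direction and genes not called all included holders of it. A match is a run of letters and not a site of binding.

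Library totals over named genes ran from 12336303 to 62819028 counts. Kat6b had 61.0, 64.1, 66.1 and 62.3 CPM (counts scaled for library size) in KO_B6, against 85.1, 84.1 and 83.5 CPM in WT_B6. The groups did not overlap, but the log2 fold change of -0.41 (SE 0.17) was not called (adjusted p = 0.0571, edgeR's quasi-likelihood F-test with Benjamini-Hochberg adjustment, used throughout). Kat6b ran from 140 to 289 CPM in Tg_FvB, lowest in replicate 5, against 54.4 and 51.9 CPM in WT_FvB, and was called higher (log2 fold change 2.19, SE 0.21, adjusted p = 2.38e-04). All 8 neural stem and progenitor markers were detected in every group, with summed levels of 5733 to 6997 CPM in KO_B6, 7185 to 7197 CPM in WT_B6, 4797 to 7643 CPM in Tg_FvB and 4879 to 4979 CPM in WT_FvB. Of these markers 6 of 8 were called lower and 1 higher in KO_B6, and 1 was called higher in Tg_FvB. Of all genes tested, 20.9% were called lower and 24.8% higher in KO_B6, and 0.688% higher in Tg_FvB. The 5 neuronal markers summed to 1016 to 1148 CPM in KO_B6, 1124 to 1135 CPM in WT_B6, 865 to 1100 CPM in Tg_FvB and 972 to 1021 CPM in WT_FvB, but Map2 made up most of each sum. Dcx (-1.47, SE 0.27) and Tubb3 (-1.51, SE 0.23), markers of young neurons, fell in KO_B6 on the log2 scale and Neurod1 rose, and in Tg_FvB Rbfox3 and Neurod1, at mean levels of at most 2.06 CPM, were called higher. Other cell types were near absent: 5 endothelial markers summed to 1.40 to 2.38 CPM, 5 pericyte and fibroblast markers to 2.19 to 4.58 CPM, 5 microglial markers to at most 0.365 CPM, and 2 erythroid markers to at most 0.475 CPM, with Cdh5 and Cldn5 at 0 in WT_B6 and C1qa at 0 in all 4 groups. In bulk RNA, fewer cells of a type and less RNA per cell cannot be told apart, and the part of the progenitor and neuronal markers' shifts in the results was not tested. Several libraries of a group were nearly alike: the biological coefficient of variation was 0.0172 to 0.0358 among the 3 WT_B6 libraries, 0.0268 between KO_B6 replicates 2 and 3, 0.0316 between the WT_FvB libraries and 0.0415 and 0.0338 for Tg_FvB replicates 1 and 2 and replicates 2 and 3, while the other pairs within a group lay between 0.0503 and 0.275. Nearly alike libraries occurred across litter numbers as well as within them. The WT_B6 libraries carry litters 844, 843 and 929. KO_B6 replicates 2 and 3 carry 843 and 929, and Tg_FvB replicates 2 and 3 carry 844 and 873. The WT_FvB libraries, and Tg_FvB replicates 1 and 2, share litter 844. KO_B6 replicates 1 and 2, both of litter 843, lay at 0.1555. The labels do not say whether such libraries are separate cultures, so p-values measure the spread between these libraries. Tg_FvB replicates 1 to 6 are titled as knockouts and the count columns of replicates 5 and 6 are headed as wild types, but the genotype field was followed, and Kat6b was high in all 6.

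All 33 genes passed the filter on low counts. Lox exceeded the filter level of 0.326 CPM in only 5 libraries (3 Tg_FvB, 2 WT_FvB) and Car9 in 9, none of them WT_B6, while the other genes exceeded it in all 15. In KO_B6 against WT_B6, 17 of the 33 genes were called higher and 6 lower, and 10 were not called; over all 15261 genes tested, 24.8% were called higher and 20.9% lower, 45.8% in either direction. The median log2 fold change was 0.52 over the 33 genes and 0.02 over all genes tested; it was 0.34 without KO_B6 replicate 1 and 0.64 without KO_B6 replicate 4. Without any overlap between the groups, 15 genes were higher and 5 lower in KO_B6, against 29.3% and 27% of all genes tested. In Tg_FvB against WT_FvB, 0 genes were called higher and 11 lower, and the median was -0.61, against 0.01 over all genes tested, of which 0.688% were called higher and 1.17% lower, 1.85% in either direction. At an unadjusted p under 0.05, 2 genes were higher in Tg_FvB (Egln2 and Hif1an) and 22 lower, against 10.2% and 8.1% of all genes tested, and DESeq2 called 1 higher and 15 lower, against 2.33% and 2.4%. Without overlap, 2 genes were higher in Tg_FvB and 22 lower, against 7.97% and 8.01% of all genes tested.

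**Figure D1:**
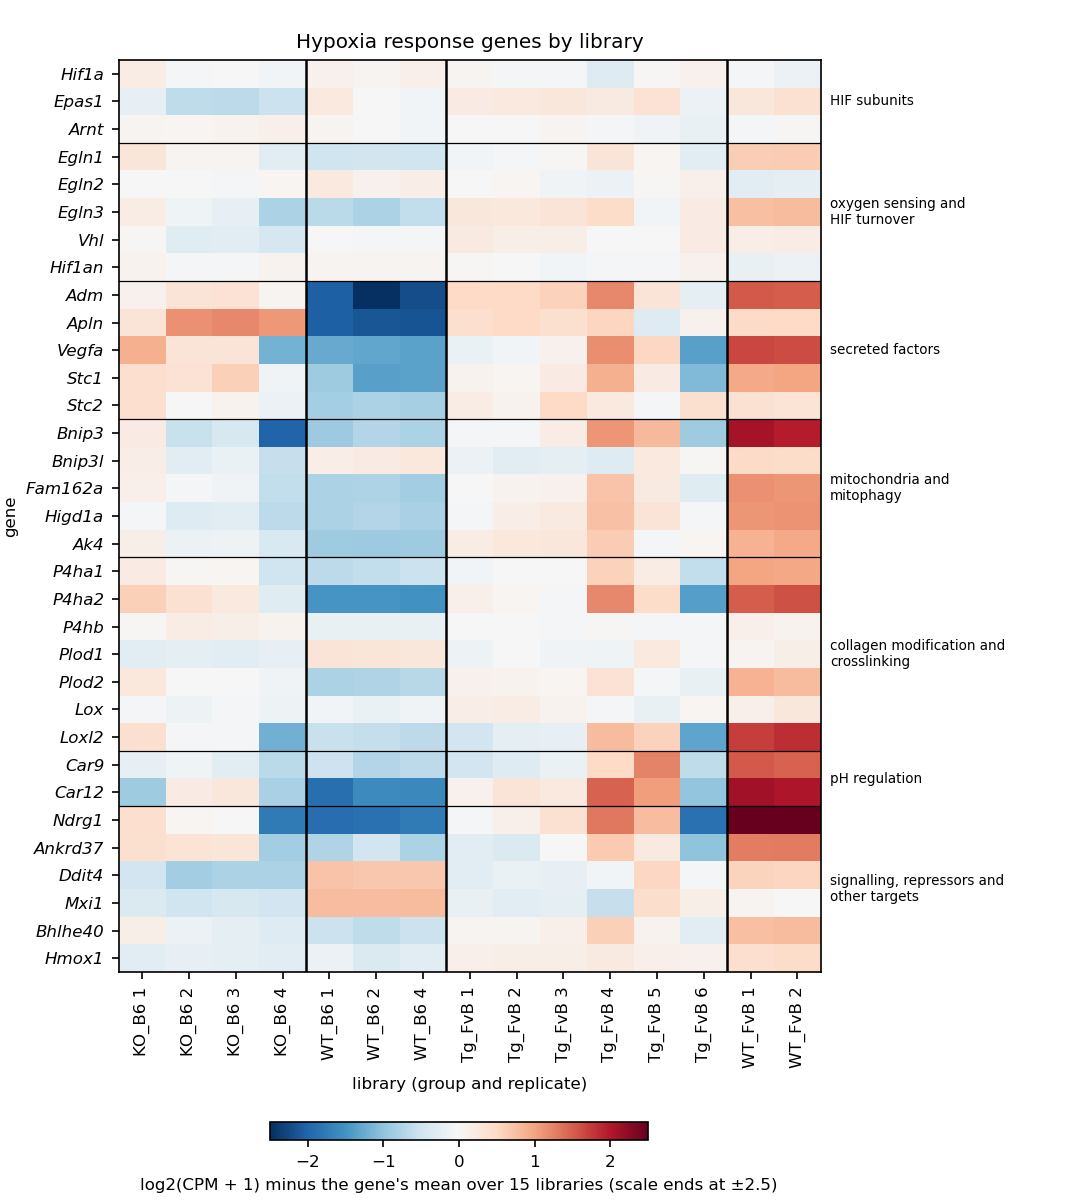
Level of each of the 33 genes (rows, ordered by role) in each of the 15 libraries (columns), as log2(CPM + 1) minus the gene's mean over the libraries; red is above and blue below that mean. For most targets the KO_B6 columns are redder than the 3 blue WT_B6 columns and the Tg_FvB columns paler than the 2 red WT_FvB columns, while the Hif1a and Arnt rows are pale throughout.

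The secreted factors were the only role of which every measured gene was called higher in KO_B6, 5 of 5, where 24.8% of all genes tested were. Adrenomedullin (Adm), a peptide that widens and stabilizes vessels, had 19.4, 22.8, 23.5 and 19 CPM in KO_B6, against 3.60, 2.28 and 3.09 CPM in WT_B6. Apelin (Apln), a ligand for a receptor of vessel cells, had 45, 80, 84.2 and 77.1 CPM in KO_B6, against 7.91, 7.43 and 7.22 CPM in WT_B6. Every KO_B6 library thus stood well above every WT_B6 library for both peptides, at log2 fold changes of 2.85 (SE 0.28, adjusted p = 7.30e-06) for Adm and 3.25 (SE 0.24, adjusted p = 1.66e-06) for Apln. Vegfa, the main vessel growth factor, had 324, 219, 218 and 76.5 CPM in KO_B6, against 72.4, 70.2 and 68.3 CPM in WT_B6, so replicate 4 stood just above the wild types and the other 3 far above them (log2 fold change 1.57, SE 0.48, adjusted p = 0.0149). The stanniocalcins, secreted hormones tied to calcium and phosphate handling, rose too. Stc1 had 9.13, 8.64, 10.4 and 6.13 CPM in KO_B6, against 3.05, 1.96 and 2.00 CPM in WT_B6, and Stc2 averaged 11.9 ± 2.20 CPM in KO_B6 (SD, n = 4), against 5.80 ± 0.149 CPM in WT_B6 (SD, n = 3). Their log2 fold changes were 1.90 (SE 0.39, adjusted p = 0.00114) for Stc1 and 1.03 (SE 0.15, adjusted p = 9.97e-05) for Stc2.

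With the transgene, only Adm among the secreted factors was called, and it was lower. It had 15.2, 25.8 and 42.7 CPM as the lowest, median and highest of 6 Tg_FvB libraries, against 54.3 and 53.0 CPM in WT_FvB (log2 fold change -1.03, SE 0.23, adjusted p = 0.0407). Vegfa spread from 66.7 CPM in Tg_FvB replicate 6 to 392 CPM in replicate 4, with a median of 177 CPM, against 557 and 541 CPM in WT_FvB; all 6 lay below both wild types, but the log2 fold change of -1.44 (SE 0.46) was not called (adjusted p = 0.112). Apln, the gene with the highest rise in KO_B6, ran from 28.5 to 52.6 CPM in Tg_FvB with a median of 48.2 CPM, against 50.1 and 51.1 CPM in WT_FvB, and the groups overlapped (log2 fold change -0.19, SE 0.22, adjusted p = 0.669). Stc1 (-0.92, SE 0.36) and Stc2 (-0.13, SE 0.15) were not called.

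**Figure D2:**
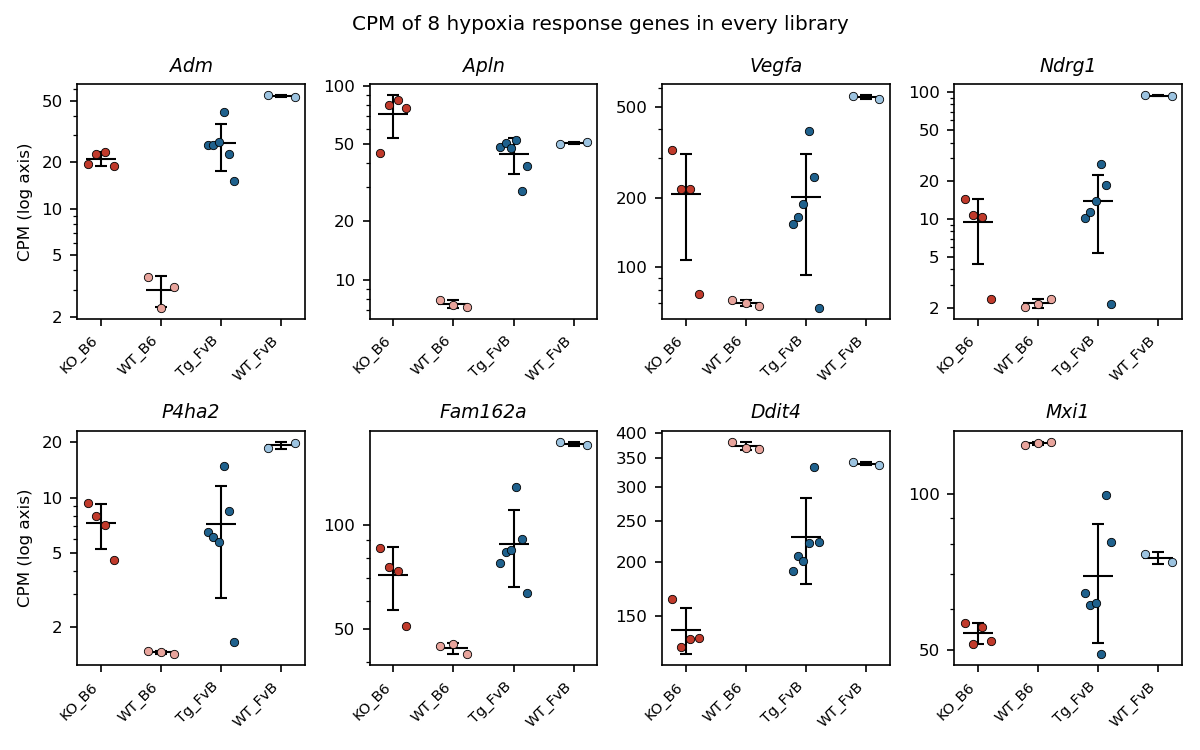
CPM (log axis, a scale of its own in each panel) of 8 of the genes in every library of KO_B6 (n = 4), WT_B6 (n = 3), Tg_FvB (n = 6) and WT_FvB (n = 2); points are libraries from replicate 1 on the left, the wide mark is the mean and bars are SD. KO_B6 replicate 4 and Tg_FvB replicate 6 are the lowest points of their groups for Vegfa, Ndrg1, P4ha2 and Fam162a, and the 2 WT_FvB libraries lie on top in each of those panels.

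The HIF subunits moved little. Hif1a, the main oxygen-labile subunit, averaged 276 ± 23.0 CPM in KO_B6 (SD, n = 4) and 292 ± 4.49 CPM in WT_B6 (SD, n = 3), and 268 ± 26.9 CPM in Tg_FvB (SD, n = 6) and 255 ± 11.1 CPM in WT_FvB (SD, n = 2). Neither difference was called, at log2 fold changes of -0.08 (SE 0.09, adjusted p = 0.465) and 0.07 (SE 0.09, adjusted p = 0.698). Arnt, the stable partner, lay between 50.0 and 61.9 CPM in all 15 libraries and was not called in either comparison. Epas1, which encodes HIF-2 alpha, was the exception: it had 23.0, 16.7, 16.6 and 18.1 CPM in KO_B6, against 31.6, 26.8 and 25.3 CPM in WT_B6, with no overlap (log2 fold change -0.58, SE 0.13, adjusted p = 0.00201). In Tg_FvB it was not called (-0.14, SE 0.14).

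Among the oxygen sensors, the EGLN genes that HIF induces and the one that it does not were called in opposite directions in KO_B6. Egln1, the main HIF prolyl hydroxylase, had 220, 187, 185 and 146 CPM in KO_B6, against 125, 128 and 126 CPM in WT_B6 (log2 fold change 0.54, SE 0.13, adjusted p = 0.00278). It had 147, 176 and 221 CPM as the lowest, median and highest in Tg_FvB, against 270 and 276 CPM in WT_FvB (-0.61, SE 0.13, adjusted p = 0.0322), so it was called in opposite directions with loss and with excess of Kat6b, without overlap in either. Egln3, whose transcript is a strong HIF target, had 54.0, 44.1, 41.1 and 27.1 CPM in KO_B6, against 29.4, 27.1 and 30.5 CPM in WT_B6, and was called higher (0.52, SE 0.17, adjusted p = 0.0214) although replicate 4 lay within the wild-type range. In Tg_FvB it was lower than both wild types in all 6 libraries but not called (-0.52, SE 0.17, adjusted p = 0.131). Egln2, which is not a usual HIF target, fell slightly in KO_B6 (-0.17, SE 0.06, adjusted p = 0.0391), and its rise of 0.27 (SE 0.07) in Tg_FvB was not called (adjusted p = 0.067). Vhl, the substrate receptor of the ligase, and Hif1an, which hydroxylates HIF to block its activity, were not called in either comparison (log2 fold changes in KO_B6 -0.20 and -0.05, in Tg_FvB -0.05 and 0.17).

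Of 5 genes of mitochondria and mitophagy, 3 were called higher and 1 lower in KO_B6, against 24.8% and 20.9% of all genes tested. Fam162a, a mitochondrial protein tied to cell death under hypoxia, had 85.6, 75.6, 73.5 and 50.8 CPM in KO_B6, against 44.6, 45.1 and 42.2 CPM in WT_B6 (log2 fold change 0.70, SE 0.19, adjusted p = 0.00853). Higd1a, an inner-membrane protein of the respiratory chain, and Ak4, an adenylate kinase of the matrix, rose by 0.49 (SE 0.17, adjusted p = 0.0263) and 0.80 (SE 0.14, adjusted p = 3.45e-04) on the log2 scale. The same 3 genes were called lower in Tg_FvB, where 1.17% of all genes tested were. Fam162a had 63.6, 83.8 and 129 CPM as the lowest, median and highest in Tg_FvB, against 173 and 170 CPM in WT_FvB (-0.96, SE 0.19, adjusted p = 0.0278). Higd1a (-0.88, SE 0.17, adjusted p = 0.0243) and Ak4 (-0.67, SE 0.14, adjusted p = 0.0309) fell without overlap as well. The mitophagy receptors did not share this pattern. Bnip3 had 55.8, 32.2, 36.2 and 11.3 CPM in KO_B6, against 25.1, 28.5 and 27.4 CPM in WT_B6; replicate 4 was below and the other 3 were above the wild types, and it was not called (0.32, SE 0.45, adjusted p = 0.589). Its log2 fold change in Tg_FvB was -1.72 (SE 0.43) with all 6 libraries below both wild types, and it missed the threshold (adjusted p = 0.0561). Bnip3l was called lower in KO_B6 (-0.41, SE 0.15, adjusted p = 0.0377), where replicate 1, at 103 CPM, lay within the wild-type range of 102 to 109 CPM, and it was not called in Tg_FvB (-0.57, SE 0.16, adjusted p = 0.0792).

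Of 7 genes that modify or crosslink collagen, 4 were called higher and 1 lower in KO_B6, and 3 lower in Tg_FvB. Of all genes tested, 24.8% were called higher and 20.9% lower in KO_B6, and 1.17% lower in Tg_FvB. P4ha2, a catalytic subunit of collagen prolyl hydroxylase, had 9.37, 7.95, 7.11 and 4.61 CPM in KO_B6, against 1.47, 1.47 and 1.42 CPM in WT_B6 (log2 fold change 2.31, SE 0.52, adjusted p = 0.00219). The other catalytic subunit, P4ha1, had 120, 106, 108 and 73.7 CPM in KO_B6, against 66.1, 68.0 and 71.1 CPM in WT_B6 (0.57, SE 0.20, adjusted p = 0.0328). Per kilobase of gene length, P4ha2 was at 3.10 CPM in KO_B6 and 0.620 CPM in WT_B6, and P4ha1 at 25.2 and 16.9 CPM in these groups, so the isoform with the larger rise was the less abundant by level in both. P4hb, their shared subunit and a protein disulfide isomerase, rose by 0.29 (SE 0.05, adjusted p = 2.21e-04) with 323 to 358 CPM in KO_B6, against 278 to 280 CPM in WT_B6.

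The lysyl hydroxylases split in the knockout. Plod2, which prepares collagen for stable crosslinks, had 93.3, 78.3, 76.2 and 72.7 CPM in KO_B6, against 44.1, 45.5 and 47.3 CPM in WT_B6 (0.81, SE 0.11, adjusted p = 5.50e-05). Plod1 had 52.7, 53.9, 52.6 and 54.8 CPM in KO_B6, against 79.2, 78.5 and 77.1 CPM in WT_B6 (-0.55, SE 0.07, adjusted p = 5.25e-05), so it fell in all 4 libraries while its relative rose. In Tg_FvB, Plod2 ran from 68.2 to 100 CPM with a median of 81.1 CPM, against 142 and 134 CPM in WT_FvB (-0.76, SE 0.11, adjusted p = 0.00574). P4ha1 fell there too (-0.93, SE 0.21, adjusted p = 0.0378), while P4ha2 at -1.46 (SE 0.44, adjusted p = 0.101), P4hb and Plod1 were not called. Loxl2, a lysyl oxidase, had 2.33, 6.15 and 13.5 CPM as the lowest, median and highest in Tg_FvB, against 26.5 and 28.9 CPM in WT_FvB (-1.95, SE 0.45, adjusted p = 0.0423); it was not called in KO_B6 (0.57, SE 0.48, adjusted p = 0.353). Lox was at most 0.547 CPM in any library and was called in neither comparison.

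Both carbonic anhydrases that face the cell's outside were low. Car12 had 2.30, 6.05, 6.44 and 2.51 CPM in KO_B6, against 0.654, 1.04 and 0.999 CPM in WT_B6, and was called higher (2.22, SE 0.63, adjusted p = 0.00944). Car9, a sensitive hypoxia reporter, had 0.445, 0.550, 0.395 and 0.0480 CPM in KO_B6, against 0.164, 0 and 0.0644 CPM in WT_B6, and was not called (adjusted p = 0.208). Neither was called in Tg_FvB, where Car9 ran from 0.0728 to 2.92 CPM, against 3.79 and 3.60 CPM in WT_FvB, and Car12 from 2.11 to 16.1 CPM, against 25.3 and 23.9 CPM in WT_FvB; all 6 Tg_FvB libraries were below both wild types for both genes.

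Of 6 signalling genes, repressors and other targets, 2 were called higher and 2 lower in KO_B6, and 3 lower in Tg_FvB. The KO_B6 counts were 33.3% in each direction, not far from the 24.8% and 20.9% of all genes tested. In Tg_FvB 1.17% of all genes tested were called lower. Ndrg1, a stress-induced gene of growth control, had 14.3, 10.7, 10.4 and 2.34 CPM in KO_B6, against 2.02, 2.12 and 2.35 CPM in WT_B6. Replicates 1 to 3 were far above the wild types and replicate 4 within their range, and the gene was called higher (2.10, SE 0.70, adjusted p = 0.0237). In Tg_FvB it had 2.14, 12.6 and 27.3 CPM as the lowest, median and highest, against 94.2 and 93.1 CPM in WT_FvB, with all 6 below (-2.80, SE 0.55, adjusted p = 0.0265). Bhlhe40, a transcriptional repressor of the clock and of differentiation, rose in KO_B6 (0.45, SE 0.15, adjusted p = 0.0246) and fell in Tg_FvB (-0.63, SE 0.15, adjusted p = 0.0492). Ankrd37, an ankyrin-repeat protein, had 4.61, 4.40, 4.19 and 1.33 CPM in KO_B6, against 1.53, 2.05 and 1.45 CPM in WT_B6, and was not called (1.09, SE 0.47, adjusted p = 0.067). Hmox1, a heme-degrading enzyme that also answers to oxidative stress through NRF2, did not pass the test in KO_B6 (0.02, SE 0.06) and fell in Tg_FvB (-0.30, SE 0.06, adjusted p = 0.0278), with 39.1 to 42.1 CPM in Tg_FvB, against 48.8 and 49.8 CPM in WT_FvB.

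Ddit4 and Mxi1, HIF targets that restrain growth, were called lower in the knockout. Ddit4, which inhibits the mTORC1 kinase, had 165, 127, 133 and 133 CPM in KO_B6, against 381, 368 and 367 CPM in WT_B6 (-1.42, SE 0.15, adjusted p = 1.10e-05). Mxi1, which opposes MYC, had 56.3, 51.4, 55.4 and 52.0 CPM in KO_B6, against 125, 125 and 126 CPM in WT_B6 (-1.22, SE 0.16, adjusted p = 4.86e-05). Both were far below every wild type in all 4 KO_B6 libraries, replicate 4 included. In Tg_FvB neither was called. Ddit4 had 191, 215 and 332 CPM as the lowest, median and highest in Tg_FvB, against 342 and 337 CPM in WT_FvB (-0.56, SE 0.16, adjusted p = 0.0788). Mxi1 ran from 49 to 99.7 CPM in Tg_FvB, against 76.7 and 74.0 CPM in WT_FvB (-0.11, SE 0.18), and overlapped.

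**Figure D3:**
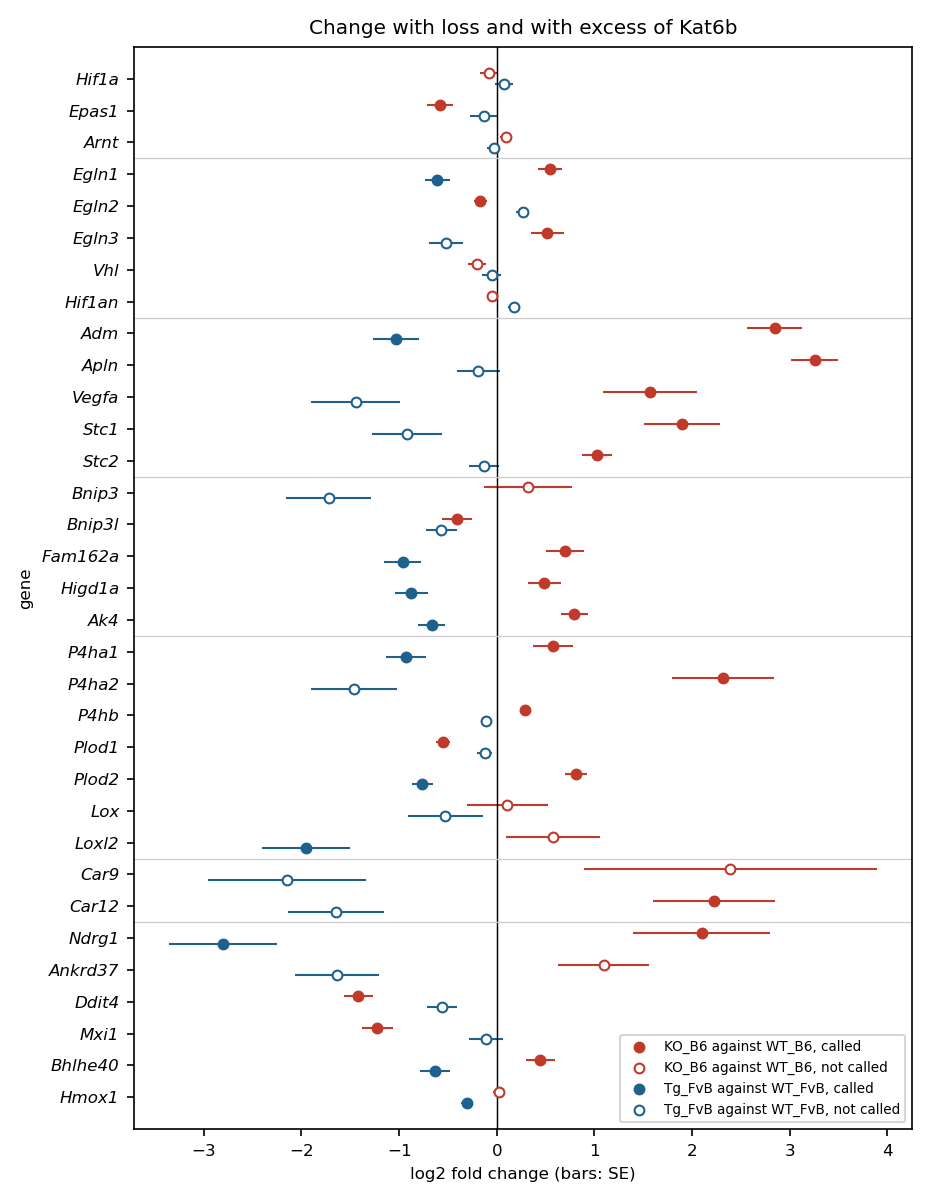
Log2 fold change (x axis, bars SE) of each of the 33 genes (y axis, by role, grey lines between roles) in KO_B6 against WT_B6 (red) and in Tg_FvB against WT_FvB (blue); filled points were called and open ones not. Most red points lie right of 0 and most blue points left of it, while Epas1, Vhl, Bnip3l, Plod1, Ddit4 and Mxi1 lie left in both.

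Of the 17 genes called higher in KO_B6, 11 were called in every fit that left out a single library: Egln1, Adm, Apln, Stc1, Stc2, Fam162a, Ak4, P4ha2, P4hb, Plod2 and Car12. Without WT_B6 replicate 2, and likewise without WT_B6 replicate 4, the count was 11, and Egln3, Vegfa, Higd1a, P4ha1, Ndrg1 and Bhlhe40 were lost. Of all genes tested, 2767 and 2783 were called higher in these fits, against 3787 in the main fit. Higd1a and P4ha1 were lost as well without WT_B6 replicate 1 or KO_B6 replicate 1, 2 or 3, Egln3 and Bhlhe40 without WT_B6 replicate 1 or KO_B6 replicate 1 or 2, Ndrg1 without WT_B6 replicate 1 or KO_B6 replicate 1, and P4ha1 without either WT_FvB library. Epas1, Plod1, Ddit4 and Mxi1 stayed called lower in every such fit, whereas Bnip3l was lost without any of 5 libraries (WT_B6 replicates 1, 2 and 4, KO_B6 replicates 2 and 4) and Egln2 without WT_B6 replicate 1. With litter as a term, 10 of the 17 and 4 of the 6 were kept, and Egln3, Vegfa, Higd1a, P4ha1, Car12, Ndrg1, Bhlhe40, Egln2 and Bnip3l were lost. Over all genes tested, calls fell from 3787 to 2886 higher and from 3195 to 2380 lower. WT_B6 replicate 1 was the only B6 library of litter 844, so in that fit it did not inform the knockout effect. Within litter 843 (2 KO_B6, 1 WT_B6) 24 of the 33 genes were higher and 6 lower in KO_B6 without overlap, against 41.7% and 38.7% of all genes tested. Within litter 929 (2 KO_B6, 1 WT_B6) 17 were higher and 8 lower, against 44.6% and 41.2%. These are the libraries of the comparison itself and give no separate support. When nearly alike libraries were summed into 1, which left 9 libraries, 0 of the 33 genes were called in this comparison, with 10 at an unadjusted p under 0.05, against 21.7% of all genes tested, and the median was 0.47.

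The 11 calls in Tg_FvB rest on 2 nearly alike wild types. Without either WT_FvB library 0 genes were called lower, without Tg_FvB replicate 1 or 2 only 1 (Plod2), and without replicate 3 only 2; without WT_B6 replicate 1 there were 6, and without WT_B6 replicate 2 or 4 or KO_B6 replicate 2 or 3 there were 7, although those libraries are not in the comparison: all groups share 1 model. Without Tg_FvB replicate 4 there were 19, and without replicate 5 there were 17. Calls over all genes tested moved as well, from 178 lower in the main fit to 0 without either WT_FvB library. They were 36, 41 and 59 without Tg_FvB replicate 1, 2 or 3, 800 without replicate 4 and 390 without replicate 5. The median log2 fold change over the 33 genes stayed between -0.678 and -0.574 leaving out single libraries. Within litter 844 (2 Tg_FvB, 2 WT_FvB) 3 of the 33 genes were higher and 26 lower in Tg_FvB without overlap, against 34.8% and 30.7% of all genes tested, from libraries of the comparison itself, and litter 873 held Tg_FvB libraries only. With litter as a term 0 were called, where 6 of all 15261 genes tested were called higher and 4 lower.

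The effect of knockout minus the effect of transgene was tested as a difference in the same model. It was positive and called for 22 of the 33 genes and negative for 5, where 19.5% and 17.8% of all genes tested were called (37.3% in either direction), with a median of 1.16, against 0.01 over all genes tested. Ndrg1 had the largest called difference on the log2 scale, 4.90 (SE 0.91, adjusted p = 0.00114), before Car9 at 4.54 (SE 1.66, adjusted p = 0.0426) and Adm at 3.87 (SE 0.36, adjusted p = 5.15e-05). The call of Car9 was lost in 11 of the 15 fits that left out a library, that of Hif1an in 9, that of Bnip3 without either WT_FvB library and that of Hmox1 without WT_FvB replicate 2. The negative differences belonged to Egln2 (-0.43), Hif1an (-0.22), Plod1 (-0.42), Ddit4 (-0.85) and Mxi1 (-1.11). Bnip3l, whose log2 fold change was negative in both mutants but called in KO_B6 only, had a difference of 0.16 (SE 0.22) that was not called. The effects were measured in different strains, so genotype and background cannot be told apart in this difference. It equals KO_B6 minus Tg_FvB plus WT_FvB minus WT_B6, and so holds the gap between the wild types. That gap was 5.42 for Ndrg1, 5.78 for Car9 and 4.19 for Adm, larger than their differences. For Apln it was 2.755, under the difference of 3.445. A called difference by itself therefore does not show opposite responses to loss and excess of Kat6b.

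The wild types of the backgrounds differed too. In WT_FvB against WT_B6, 23 of the 33 genes were called higher and 3 lower, where 25.4% and 23.5% of all genes tested were (48.9% in either direction), and the median log2 fold change was 1.49, against 0.02 over all genes tested. Without overlap 26 were higher and 6 lower, against 40.1% and 38.2% of all genes tested. Lox and Car9 are in both counts of higher genes, although no WT_B6 library exceeded the filter level for either. Lox passed the filter through Tg_FvB and WT_FvB libraries alone, so its place in these counts gives no support. Adm had 54.3 and 53.0 CPM in WT_FvB, against 3.60, 2.28 and 3.09 CPM in WT_B6 (4.19, SE 0.31, adjusted p = 1.50e-06), and Ndrg1 had 94.2 and 93.1 CPM in WT_FvB, against 2.02, 2.12 and 2.35 CPM in WT_B6 (5.42, SE 0.79, adjusted p = 1.42e-04). Vegfa had 557 and 541 CPM in WT_FvB, against 72.4, 70.2 and 68.3 CPM in WT_B6 (2.96, SE 0.56, adjusted p = 6.79e-04). The genes called lower in WT_FvB were Egln2, Hif1an (lost without WT_FvB replicate 1) and Mxi1 (lost without WT_FvB replicate 2), and Lox, called higher, was lost without WT_B6 replicate 2 or WT_FvB replicate 2. Both WT_FvB libraries stood above the other 13 libraries for 20 of the 33 genes, against 5.41% of all genes tested. All 3 WT_B6 libraries stood below the other 12 for 12 genes, against 15.3%. For 24 genes the KO_B6 and Tg_FvB means both fell between the WT_B6 and WT_FvB means, as they did for 34.9% of all genes tested. This comparison shares WT_B6 with the knockout comparison and WT_FvB with the transgene comparison, so its values are no separate support for either. With litter as a term the median was 1.47 and 25 of the 26 calls were kept, Hif1an being lost. That fit gave each strain litter terms of its own, so its values set WT_FvB in litter 844 against WT_B6 in litter 843. They are not a strain difference adjusted for litter. WT_B6 replicate 1 and the WT_FvB libraries all carry number 844, and the labels do not say whether it names the same litter in both. The wild types differed in cell markers as well: 6 of 8 progenitor and 3 of 5 neuronal markers were called lower in WT_FvB, and 0 higher. The part of these shifts in the values of the 33 genes was not tested. Strain and any difference in culture or in cell make-up cannot be told apart here.

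**Figure D4:**
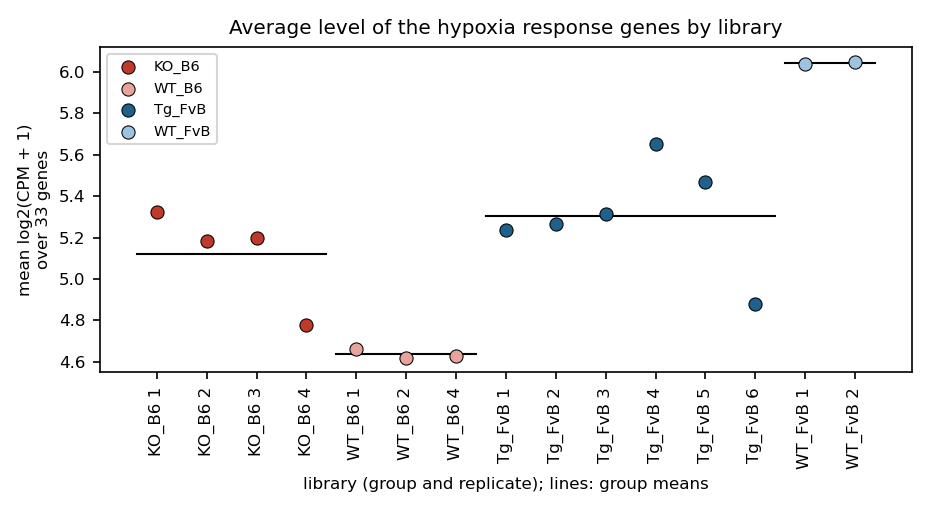
Mean log2(CPM + 1) over the 33 genes (y axis, not starting at 0) in each library (x axis), with lines at the group means. KO_B6 spreads from 4.78 (replicate 4) to 5.32 (replicate 1), above WT_B6 at 4.62 to 4.66, and Tg_FvB from 4.88 (replicate 6) to 5.65 (replicate 4), below WT_FvB at 6.04 and 6.05.

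Single libraries held many of the lowest or highest values of the 33 genes within KO_B6 and Tg_FvB. KO_B6 replicate 4 was the lowest KO_B6 library for 21 of the 33 genes, and for 14 of the 17 called higher, and replicate 1 was the highest for 22. On the log2(CPM + 1) scale, KO_B6 replicate 4 was nearer to the WT_B6 mean than to the mean of the other 3 KO_B6 libraries for 15 genes, among them Vegfa, Ndrg1, Egln1 and Fam162a, but not Adm, Apln, P4ha2 or Plod2. In Tg_FvB, replicate 4 was the highest library for 20 genes and for all 11 called lower, and replicate 6 the lowest for 19 and for 9 of those 11. The median coefficient of variation over the 33 genes was 17.9% in KO_B6, against 3.6% in WT_B6, and 20.7% in Tg_FvB, against 2.0% in WT_FvB. The groups differed in the same way over all genes tested. There the biological coefficient of variation of a pair reached 0.166 in KO_B6, against 0.0358 in WT_B6, and 0.275 in Tg_FvB, against 0.0316 in WT_FvB. How far the spread and the order of libraries are particular to the 33 genes was not tested. KO_B6 replicate 4 was also the deepest library (62819028 counts) and Tg_FvB replicate 4 the shallowest (12336303), and the part of depth in these values was not tested. Tg_FvB replicate 4 was also the lowest Tg_FvB library for every progenitor and neuronal marker but Nes, Vim and Neurod1. Dcx, picked after its values were seen, had 11.8 CPM there, against 28.7 to 34.5 CPM in the other Tg_FvB libraries and 11.9 CPM in WT_FvB. The part of cell make-up in these values was not tested. Without KO_B6 replicate 4, 18 genes were called higher and 5 lower in KO_B6, Ankrd37 being added and Bnip3l lost, and Ndrg1 rose by 2.43 (SE 0.61). Without Tg_FvB replicate 6, 10 were called lower in Tg_FvB, and Bhlhe40 was lost. Of all genes tested, 175 were called lower in that fit, against 178 in the main fit.

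Of 25 tested HIF targets outside glycolysis that are not among the 33, 5 were called higher and 5 lower in KO_B6 (median log2 fold change 0.01), or 20% in each direction, near the 24.8% and 20.9% of all genes tested, and 6 were called lower in Tg_FvB (median -0.38), where 0 were called higher by edgeR or DESeq2 and 1 was higher at an unadjusted p under 0.05. Ero1l, an oxidase that folds secreted proteins, averaged 90.4 CPM in KO_B6 and 40.1 CPM in WT_B6 (1.17, SE 0.34, adjusted p = 0.0109), and 84.0 CPM in Tg_FvB and 224 CPM in WT_FvB (-1.43, SE 0.33, adjusted p = 0.0407). The early response gene Ier3 (1.75, SE 0.25) and the transferrin receptor Tfrc (0.98, SE 0.12) rose in KO_B6, while Angptl4, a lipase inhibitor (-1.92, SE 0.47), the lipid droplet protein Plin2 (-0.55, SE 0.09) and the histone demethylase Kdm4b (-0.41, SE 0.07) fell. Bhlhe41 (-1.08, SE 0.20), a repressor related to Bhlhe40, and Zfp395 (-0.86, SE 0.20) fell in Tg_FvB.

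Of 16 glycolytic HIF targets 7 were called higher in KO_B6 (median 0.47) and 6 lower in Tg_FvB (median -0.61). These were 43.8% and 37.5%, against 24.8% and 1.17% of all genes tested. None went the other way by edgeR, by DESeq2 or at an unadjusted p under 0.05. Hk2, the inducible hexokinase, rose by 1.26 (SE 0.30) in KO_B6, and Ldha, lactate dehydrogenase, averaged 574 CPM in KO_B6 and 320 CPM in WT_B6 (0.84, SE 0.16, adjusted p = 6.99e-04). Ldha fell in Tg_FvB (-0.67, SE 0.16, adjusted p = 0.0488), as did the glucose transporter Slc2a1 (-1.42, SE 0.27) and Pgk1 (-0.65, SE 0.13).

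Of 11 further genes of the HIF machinery 3 were called higher and 2 lower in KO_B6. These were 27.3% and 18.2%, near the 24.8% and 20.9% of all genes tested. In Tg_FvB edgeR called 0 and DESeq2 called 1 higher. At an unadjusted p under 0.05, 3 were higher and 2 lower in Tg_FvB, against 10.2% and 8.1% of all genes tested. In KO_B6 Siah2, a ligase for the EGLN enzymes, rose (0.63, SE 0.07), as did the VHL complex members Eloc (0.28, SE 0.11) and Cul2 (0.16, SE 0.05). Arnt2, the neural partner of HIF, fell there (-0.37, SE 0.07). Hif3a, a HIF subunit that can act as an inhibitor and is named here after its value was seen, averaged 1.66 CPM in KO_B6 and 6.69 CPM in WT_B6 (-2.00, SE 0.33, adjusted p = 2.58e-04). Of 7 tested receptors of the secreted factors, 2 were higher and 2 lower in KO_B6, or 28.6% in each direction, not far from the shares over all genes. The lower ones were the neuropilins Nrp1 (-0.52, SE 0.13) and Nrp2 (-1.15, SE 0.33), VEGF co-receptors. Flt1 (0.557 CPM in KO_B6, 0.105 CPM in WT_B6) and Kdr (1.53 CPM in KO_B6, 1.06 CPM in WT_B6), the VEGF receptors of vessel cells, were the higher ones, at low levels; they too were chosen after their values were seen.

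Of 6 NRF2 targets 4 were higher and 2 lower in KO_B6, with Srxn1 (0.71, SE 0.23), Gclc (0.71, SE 0.11) and Txnrd1 (0.41, SE 0.12) among the higher and the cystine transporter Slc7a11 (-0.67, SE 0.12) and the quinone reductase Nqo1 (-0.67, SE 0.18) lower; Slc7a11 was lower in Tg_FvB as well (-0.67, SE 0.13). Of 6 ATF4 targets 2 were called lower in KO_B6, Ddit3 (-0.49, SE 0.15) and Sesn2 (-0.23, SE 0.09), and none was higher by edgeR, by DESeq2 or at an unadjusted p under 0.05. In Tg_FvB edgeR called 0 of them, with 3 lower at an unadjusted p under 0.05 and 1 called lower by DESeq2. In these short lists of other genes, where 45.8% of all genes tested were called in KO_B6, the counts are descriptions; they were not tested as sets.

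Counting limits touch some of these values. Neither the strand of the libraries nor the treatment of reads shared between genes is given in the sources used here, and 14 of the 33 genes share exon bases with another annotated gene, such as Ndrg1, Higd1a, Bnip3, Fam162a and Ankrd37, so reads of both partners cannot be told apart. Ak4, Bnip3, Bnip3l, Higd1a and Loxl2 have stretches of at least 98% identity in another gene or pseudogene, such as 672 bases of Ak4 in Ak3l2-ps and 2348 bases of Loxl2 in Gm21451, and their counts are uncertain to that extent. Adm, Apln, Vegfa, Ddit4, P4ha2 and Egln1 have neither.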

How the data were processed

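Total RNA of 15 libraries was sequenced as paired reads of 66 bases, per the labels. The authors deposited raw counts per gene with gene length in bases; per the submitters' processing notes bcl2fastq, featureCounts and mm10 were used, and strand, aligner and tool versions were not given in the sources used here. Unnamed entries (917, 0.450% to 0.545% of counts) were left out. From the deposited counts, edgeR 4.0.16 (R 4.3.3, TMM scaling, filterByExpr with minimum count 10) fitted 1 model with 1 coefficient per group over 15 libraries, without covariates, leaving 15261 genes tested; a gene was called at a Benjamini-Hochberg adjusted p under 0.05 over all of them. Standard errors come from the F statistic, and CPM are TMM-scaled, with a pseudocount of 1 where logged. Alternatives were RLE scaling, no filter, litter or replicate number as a term, each library left out, summed libraries, single backgrounds and DESeq2 1.42.0. Per-length levels divide CPM by the deposited length. All 33 genes and Kat6b could be named, and from each other list up to 3 called genes per direction, those that changed most above a mean level of 5 CPM. The genes, lists and tests were chosen with earlier results of these data known. Counting intervals are not given.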

Additional observations from a re-analysis of the deposited data

Results flagged for a closer look

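For 27 of the 33 genes the difference between the effects of knockout and transgene was called, by edgeR's test of the difference itself. Over all genes tested, 37.3% were called. The differences are given on the log2 scale. For the secreted factors the difference was 3.87 for Adm, 3.44 for Apln, 3.02 for Vegfa, 2.82 for Stc1 and 1.16 for Stc2. For the oxygen sensors it was 1.15 for Egln1, 1.04 for Egln3, -0.43 for Egln2 and -0.22 for Hif1an. Among genes of mitochondria it was 2.04 for Bnip3, 1.66 for Fam162a, 1.36 for Higd1a and 1.46 for Ak4. Among collagen-modifying enzymes it was 1.51 for P4ha1, 3.77 for P4ha2, 0.41 for P4hb, -0.42 for Plod1, 1.57 for Plod2 and 2.52 for Loxl2. The carbonic anhydrases had 4.54 for Car9 and 3.87 for Car12. The remaining genes had 4.90 for Ndrg1, 2.73 for Ankrd37, -0.85 for Ddit4, -1.11 for Mxi1, 1.08 for Bhlhe40 and 0.32 for Hmox1. The calls of Car9, Hif1an, Bnip3 and Hmox1 were each lost in 1 or more fits that left out a single library. The 2 effects come from different strains, and each difference also holds the gap between WT_FvB and WT_B6.

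In 6 of 66 sets of KO_B6 or Tg_FvB values the gap from an end library to its nearest neighbour was large against the group's range. Chance flags about 1 in 20 of independent sets, but these sets share their libraries, some of them nearly alike. Such a gap can be small in itself, as for Hmox1 in Tg_FvB, where the nearest library to the highest had 40.1 CPM. Ankrd37 was lowest in KO_B6 replicate 4, at 1.33 CPM, and Ddit4 highest in KO_B6 replicate 1, at 165 CPM. In Tg_FvB, replicate 5 was highest for Ddit4 (332 CPM) and Plod1 (74.8 CPM), replicate 6 was lowest for Epas1 (24.0 CPM), and replicate 4 was highest for Hmox1 (42.1 CPM). Tg_FvB replicate 5 was also the Tg_FvB library with the least Kat6b (140 CPM).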

How the results depend on the processing

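The knockout counts, 17 higher and 6 lower, were 17 and 6 with RLE scaling, 17 and 5 without a filter, and 18 and 7 by DESeq2; with litter as a term 10 were higher, and leaving out single libraries gave 11 to 18 higher and 4 to 7 lower. The transgene count, 11 lower, was the least stable: 0 with litter as a term, 0 with FvB libraries alone, 18 without Tg_FvB replicates 5 and 6 together, and 0 to 19 leaving out single libraries. Without Tg_FvB replicate 4 and by DESeq2, 1 was higher, not 0. Over all genes tested the lower calls moved too. They went from 178 to 4 with litter, 7 with FvB libraries alone and 422 without Tg_FvB replicates 5 and 6. With nearly alike libraries summed, 0 were called in either direction in any comparison, with 10 genes at an unadjusted p under 0.05 for the knockout, 10 for the transgene, 19 for the difference and 22 for the backgrounds (21.7%, 2.95%, 17.6% and 23.2% of all genes tested); edgeR then called 5 genes lower and 0 higher of 15958 in the knockout and 0 in the others. With litter as a term the negative differences numbered 2. The causes were not tested, except that summing leaves 9 libraries, with 1 in each wild-type group, assumed to vary like the other groups.

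Whether replicate numbers pair the libraries could not be decided. Deviations of same-numbered libraries from their group means correlated at -0.01, 0.015 and -0.024 in the B6 groups and at 0.163 and -0.029 in the FvB groups. The WT_B6 libraries were nearly alike, which leaves little deviation to share. The deviations of the WT_FvB libraries mirror each other, as at 0.163 and -0.163 with Tg_FvB replicate 1. With replicate number as a block, 1 gene was higher and 20 lower with the transgene, and 5 were lower in WT_FvB than in WT_B6.

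Signs turned only for uncalled values. In the knockout these were Bnip3 (-0.061 to 0.614 leaving out single libraries), Lox (-0.123 to 0.225) and Hmox1 (-0.058 to 0.082, and -0.005 with RLE, -0.007 without Tg_FvB replicates 5 and 6, -0.009 summed). With the transgene they were Arnt (0.007 with litter or block, 0.006 without Tg_FvB replicates 5 and 6, -0.085 to 0.005 leaving out single libraries) and Vhl (0.015 with litter, 0.014 with the block). Leaving out single libraries, Bnip3l gave -0.001 to 0.275 in the difference and Arnt -0.064 to 0.027 between backgrounds, where it was 0.031 with litter. Depth limits Lox and Car9, which were under the filter level in all WT_B6 libraries.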
